A study of Capsicum annuum with 12 samples.

Results

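In young leaves of pepper, H3K4me3 was not spread evenly along the chromosomes. Of 3074 bins of 1 Mb on the 12 chromosomes, 352 held 20 kb or more of bases covered by H3K4me3 peaks in both replicates. These rich bins, 11.5% of the bins, are described here. They were chosen by the H3K4me3 peak lists themselves, so their H3K4me3 is a description and was not tested. The bins ran from base 0 of each chromosome to the last peak end over the 6 lists, 3066 Mb in all. The 1662 bins with under 5 kb are called poor bins, and the 1060 bins from 5 kb to under 20 kb are called intermediate bins. Rich bins held 49.5% of all H3K4me3 bases found in both replicates (13.7 of 27.7 Mb), against 36.6% in intermediate and 13.8% in poor bins.

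H3K4me3, trimethylation of lysine 4 of histone H3, marks the start of transcribed genes, where it sits on the first nucleosomes of the gene. H3K27me3 is laid down by Polycomb proteins over genes that are kept silent in a tissue, and in plants it often covers a whole gene. H3K9me2 is known in plants from silent transposons and other repeats, where it goes together with DNA methylation. In large plant genomes genes tend to lie toward the chromosome ends, and repeats fill the interior.

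The study is about how the pepper genome is folded and provided chromatin immunoprecipitation sequencing of Capsicum annuum cultivar 59. All groups are young leaves with no treatment named in the labels, ground frozen and fixed in 1% formaldehyde for 10 min. The groups differ in the antibody, against H3K4me3, H3K27me3 or H3K9me2. Each mark had 2 replicate libraries with a peak list each, called with an input as the control per the names of the lists. The labels do not say whether replicates came from separate plants. The sources used here do not name the genome build, and coordinates are those of the lists, on sequences with the prefix Ca_59Chr, counted from 1. No genome or gene annotation of that build was used here, so bins are given by position and not by gene.

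The lists held 34467 and 33855 H3K4me3 peaks on the chromosomes in replicates 1 and 2, 37284 and 33098 H3K27me3 peaks, and 18430 and 14342 H3K9me2 peaks. The median peak rested on 73 and 80 fragments over its summit for H3K4me3, on 21 and 20 for H3K27me3 and on 15 and 15 for H3K9me2, so values of H3K9me2 are the least certain. With 2 libraries per mark, an exact two-sided sign flip over libraries cannot go below p = 0.5, and no test was run. Differences are given per library and per chromosome instead, and bins and chromosomes are parts of one genome, not replicates.

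The choice of rich bins was nearly the same in either H3K4me3 library. Replicate 1 alone put 394 bins at 20 kb or more, of which 385 (97.7%) also reached 20 kb in replicate 2. Replicate 2 alone put 396 there, and 385 (97.2%) reached it in replicate 1. Bins chosen in replicate 1 held 41.3 kb on average in replicate 2 and none held less than 18.6 kb, while bins under 5 kb in replicate 1 held 2.36 kb in replicate 2 and at most 5.998 kb. Within the 352 rich bins the replicates differed by -4.86 to 6.66 kb (replicate 1 minus replicate 2), with a median of 0.0645 kb and 185 of them higher in replicate 1.

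Rich bins lay toward the chromosome ends, but very unequally among chromosomes and between the sides of a chromosome. The outer 15% at each end of a chromosome held 299 of the 352 (84.9%), against 30.2% of all bins and 12.9% of poor bins. The median rich bin lay 13.1 Mb from the nearer end, against 63.5 Mb for all bins. The share of bins that were rich was 49.1% within 2 Mb of an end, 68.1% from 2 to 5 Mb, 50% from 5 to 10 Mb, 38.3% from 10 to 20 Mb, 18.8% from 20 to 40 Mb and 2.81% from 40 to 80 Mb. Beyond 80 Mb it was 0.524%, or 6 of 1145 bins. The outermost 2 Mb include the 12 last bins, which are shorter than 1 Mb. Without those, 27 of 45 bins (60%) within 2 Mb were rich. The mean rich bin held 47.3 kb within 2 Mb of an end and 46.5 kb from 2 to 5 Mb.

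**Figure D1:**
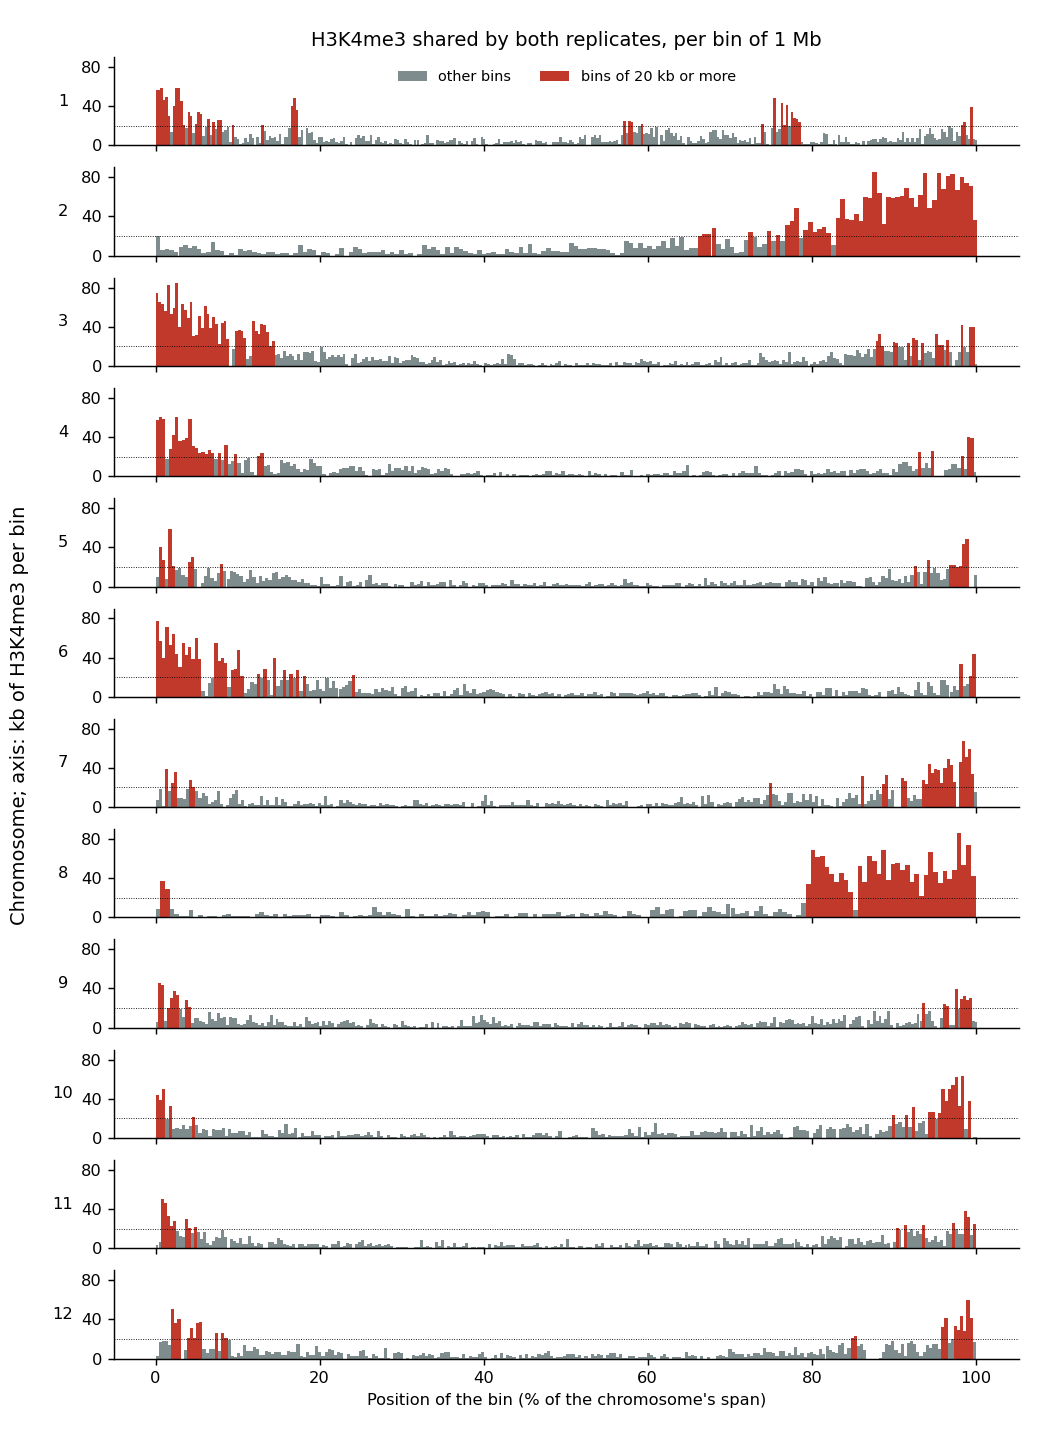
Kb of H3K4me3 found in both replicates (y axis) per bin of 1 Mb along each of the 12 chromosomes, with the position as a percent of the chromosome's span (x axis). Red bars are the 352 rich bins, grey bars all others, and the dotted line is 20 kb; rich bins fill the end of high coordinates of chromosomes 2 and 8 and the end of low coordinates of chromosome 3.

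By chromosome, rich bins numbered from 15 on chromosomes 5 and 11 to 54 on chromosome 3. Chromosome 2 had 47 (26.3% of its bins), chromosome 8 had 37 (21.1%) and chromosome 3 had 54 (18.6%). At the other extreme, 5.42% of the bins of chromosome 11, 5.69% of chromosome 9 and 5.88% of chromosome 5 were rich. On chromosomes 8 and 2, rich bins held 78.6% and 73.1% of the chromosome's H3K4me3, and on chromosomes 11, 5 and 9 they held 25.4%, 28.4% and 28.9%. The H3K4me3 of the mean rich bin also differed among chromosomes. It was 49.1 kb on chromosome 2 and 48.3 kb on chromosome 8, but 29.2 kb on chromosome 11, 30.04 kb on chromosome 5 and 30.6 kb on chromosome 9. It did not simply go with the number of rich bins, since chromosome 10 with 19 of them had 38.4 kb and chromosome 1 with 41 had 34.3 kb.

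Centromere positions were not used here, so the sides of a chromosome are the parts below and above the midpoint of its span. Of the 24 sides, 23 held rich bins. The side of low coordinates of chromosome 2 held none, while its other side held 47. On chromosome 8 the sides held 2 and 35, on chromosome 6 they held 30 and 3, on chromosome 4 they held 22 and 5, and on chromosome 7 they held 5 and 22. In these 5 chromosomes one side had at least 4 times the rich bins of the other. Chromosomes 5, 9, 11 and 12 were nearly even, with 7 and 8, 8 and 8, 8 and 7, and 11 and 10. On chromosomes 3, 4, 5, 9, 10 and 11 every rich bin lay in the outer 15%.

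Outside the outer 15% lay 53 rich bins, of which 20 were on chromosome 2, 16 on chromosome 1, 10 on chromosome 8, 5 on chromosome 6 and 1 each on chromosomes 7 and 12. The 3 deepest by their share of the span all lay on chromosome 1. That from 190000001 to 191000000 lay 142.7 Mb from the nearer end, with 25.2 kb of H3K4me3 (27.6 and 29.7 kb in the single libraries) and 1.22 kb of H3K27me3. That from 192000001 to 193000000 had 24.7 kb of H3K4me3 and 23.6 kb of H3K27me3. Its neighbour from 193000001 to 194000000 had 23.8 kb of H3K4me3 and 1.25 kb of H3K27me3, so adjacent bins of like H3K4me3 differed widely in H3K27me3.

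**Figure D2:**
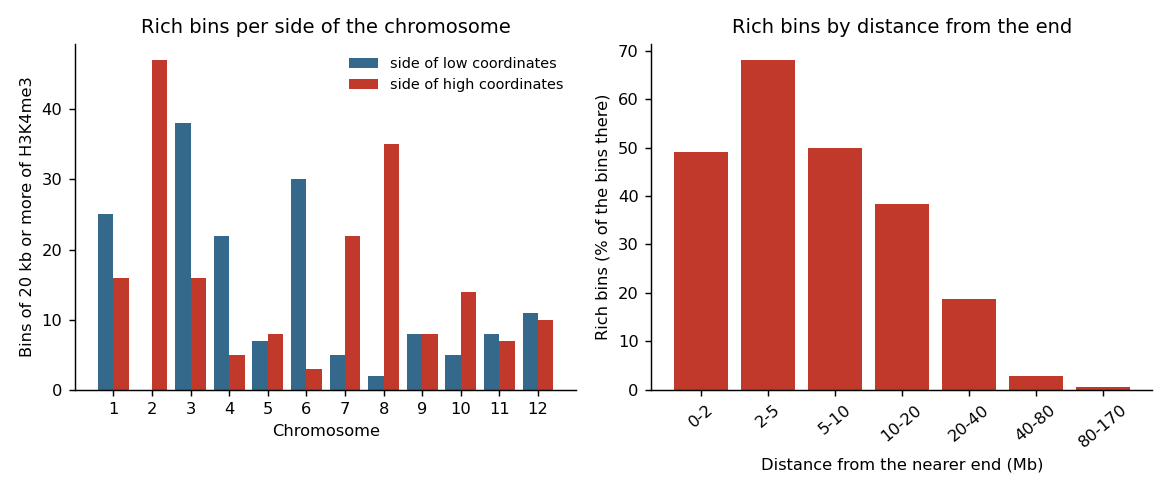
Left, number of rich bins (y axis) on the side of low and of high coordinates of each chromosome (x axis). Right, percent of bins that were rich (y axis) by distance from the nearer chromosome end in Mb (x axis); the highest share, 68.1%, stands at 2 to 5 Mb.

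Most rich bins had a rich neighbour. They formed 112 runs of adjacent bins with a median length of 2 bins, and 300 of the 352 (85.2%) lay in runs of 2 or more. The 52 single bins were 14.8% of the rich bins. The 17 runs of 5 bins or more held 191 rich bins (54.3%), and the 7 runs of 10 or more held 131 (37.2%). Bins in the runs of 5 or more were also denser in H3K4me3, at 46.4 kb and 49.5 regions per bin, against 26.8 kb and 29.8 regions in the single bins.

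The longest run covered the end of chromosome 2 from 148000001 to 178541731, 31 bins and 1880 H3K4me3 regions. It held 67.3 and 67.0 kb of H3K4me3 per bin in replicates 1 and 2, 40.9 and 36.3 kb of H3K27me3, and 0.905 and 0.816 kb of H3K9me2. The next covered the start of chromosome 3 from 1 to 26000000, 26 bins with 58.2 and 57.9 kb of H3K4me3, 26.7 and 23.2 kb of H3K27me3 and 0.958 and 0.753 kb of H3K9me2. The third longest lay on chromosome 8 from 149000001 to 174000000, 25 bins with 55.7 and 56.5 kb of H3K4me3, 27.8 and 23.7 kb of H3K27me3 and 0.949 and 0.775 kb of H3K9me2. All 3 reached the chromosome end or its last, shorter bin, and in all 3 the H3K9me2 per bin lay below the mean over all bins, 2.09 and 1.64 kb in the single libraries.

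At the border that faces the chromosome's middle, H3K4me3 dropped within 1 bin, but the first poor bin was usually several bins farther on. Over the 112 runs, the last bin inside held a median of 26.1 kb and the first bin outside 12.2 kb. The first bin outside kept a median of 0.413 of the H3K4me3 of the last bin inside (0.414 and 0.426 in the single libraries, quartiles 0.273 and 0.5995). It kept under 0.5 at 68 of the 112 borders, but was itself a poor bin at only 11. At the border toward the chromosome end, 0.448 was kept at the 100 borders that had a bin beyond them. Run lengths differed in this: runs of 5 bins or more kept 0.305 at the outer border (11 borders) and 0.450 at the inner one, while single bins kept 0.523 and 0.425. The rule places every border where a bin is under 20 kb, so the direction of the drop is set by the rule. The first poor bin came a median of 7 bins past the inner border, with a range of 1 to 37. This count passes through later rich bins, and several runs can share the same poor bin, so the 112 values are not separate. Past the innermost rich bin of each of 23 sides, the median was 3 bins.

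At the 17 runs of 5 bins or more, H3K4me3 was lower toward the border before the drop and higher again after it. The median was 42.8 kb in the fifth bin from the border, 36.3 kb in the last but one bin, 28.0 kb in the last bin and 13.6 kb in the first bin outside. It was then 17.4, 26.1 and 27.3 kb in the next 3 bins, so other rich bins followed. The rule holds only the first bin outside under 20 kb and leaves the later ones free, so higher values after it are in part set by the choice of bins. In steps of 100 kb, the last step inside held a median of 2.52 kb and the first outside 0.931 kb. The border is a line of the 1 Mb grid between a bin at 20 kb or more and one under it. A lower value past that line therefore follows from the choice and does not locate an edge. All other steps of the last bin inside lay between 1.26 and 3.66 kb, and those of the first bin outside between 0 and 1.40 kb.

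**Figure D3:**
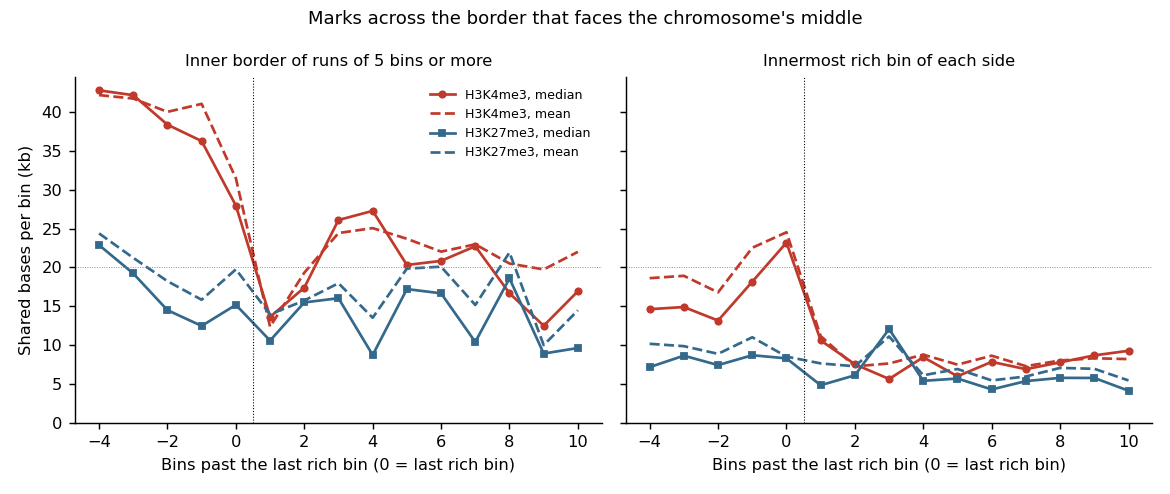
Median (solid) and mean (dashed) kb per bin of H3K4me3 (red) and H3K27me3 (blue), y axis, by the number of bins past the last rich bin toward the chromosome's middle, x axis. Left, 17 runs of 5 bins or more, where median H3K4me3 comes back to 27.3 kb in the fourth bin. Right, the innermost rich bin of 23 sides, past which the median stays between 5.64 and 10.6 kb. Bins past it are under 20 kb by the choice.

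The end of the rich stretch can also be read at the innermost rich bin of each side. It lay a median of 24.97 Mb from the chromosome end, with a range from 2.5 Mb on the side of low coordinates of chromosome 8 to 142.7 Mb on the side of high coordinates of chromosome 1. Between it and the chromosome end, a median of 44.4% of the bins were rich, with 94.6% on the rich side of chromosome 8, 90.5% on that of chromosome 3, 77.0% on that of chromosome 2 and 11.1% at the lowest. The 5 bins up to the innermost rich bin held 17.5 kb on average at the median side, and the 5 bins past it 7.58 kb. By the choice of this bin, all bins past it on its side are under 20 kb, so the fall is in part set by the choice. The first poor bin came within 3 bins on 13 of the 23 sides and directly on 1 of them. The sides differed much: on chromosome 8 the mean of 5 bins went from 55.6 to 5.24 kb, with a poor bin 2 bins on, while on the rich side of chromosome 2 it went from 21.1 to 9.88 kb and the first poor bin was 17 bins on.

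Of all runs, the steepest inner borders were on chromosomes 3, 12 and 7. The run at the start of chromosome 3 ended with a bin of 27.3 kb, followed by 26000001 to 27000000, which held no H3K4me3 base in either library and 0.352 and 0 kb of H3K27me3. The bin after it was back at 17.4 kb. On chromosome 12 the run from 5000001 to 8000000 ended at 40.8 kb, and the next bin held no H3K4me3 either but 77.0 and 67.8 kb of H3K27me3 in the single libraries. On chromosome 7 the run from 262000001 to 267000000 went from 46.1 to 0.501 kb, and 25.2 kb followed 1 bin on. The least steep borders kept 0.920 (chromosome 1, from 197000001), 0.908 (chromosome 12, from 21000001) and 0.835 (chromosome 1, from 7000001) of the last bin's H3K4me3.

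Rich bins had many more H3K4me3 regions, and these were of nearly the same median width. A region is an unbroken stretch of at least 100 bp covered in both replicates. Rich bins held 42.4 regions on average (18 to 94), intermediate bins 11.1 and poor bins 2.84. The median region was 823 bp wide in rich, 795 bp in intermediate and 798 bp in poor bins. Rich over poor bins, the covered length differed 16.9-fold, the number of regions 14.9-fold and the mean width 1.13-fold, so that number made up 95.6% of the difference on a log scale. Against bins under 2 kb in place of 5 kb, the number differed 33.5-fold. Regions were more numerous in rich bins on 12 of 12 chromosomes, by 11.1-fold on chromosome 1 to 21.1-fold on chromosome 8. The classes were set by covered bases, to which the number of regions adds, so this direction was in part set by the choice of bins. No rich bin held fewer than 18 regions and no poor bin more than 11, so every chromosome had to show it. The median region was wider in rich bins on 5 chromosomes and narrower on 7, with ratios from 0.939 to 1.09.

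**Figure D4:**
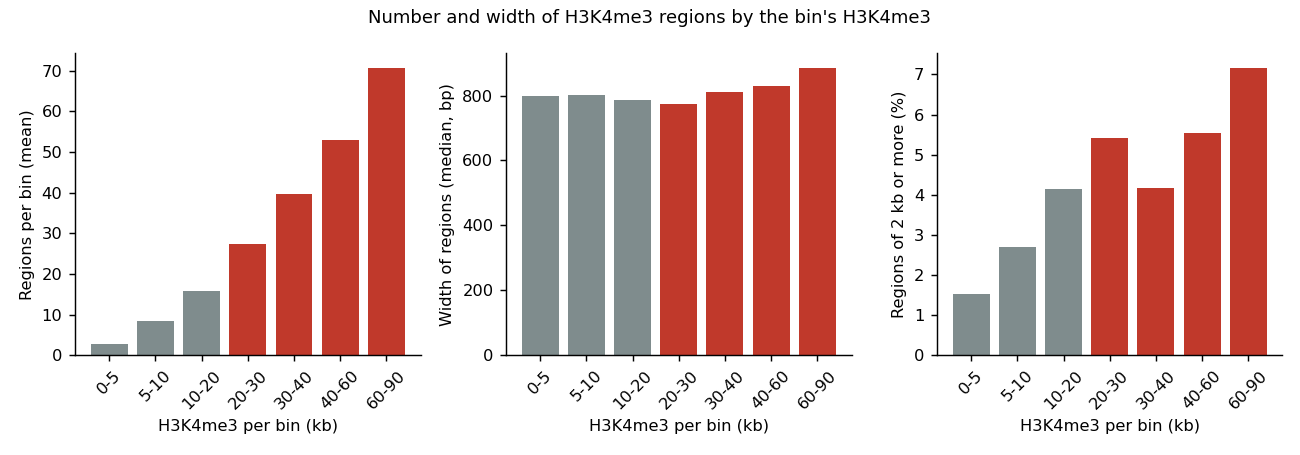
Mean number of H3K4me3 regions per bin, their median width in bp, and the percent of regions of 2 kb or more (y axes), for bins grouped by their H3K4me3 in kb (x axes). Red bars are rich bins; number goes from 2.84 to 70.8 per bin while the median width stays between 774 and 886 bp.

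The upper tail of width was the exception. Regions of 2000 bp or more were 822 of 14916 (5.51%) in rich bins, 409 of 11814 (3.46%) in intermediate bins and 72 of 4722 (1.52%) in poor bins. The widest 10% began at 1655 bp in rich and at 1281 bp in poor bins. A wide region adds to the covered bases that set the classes, and a poor bin has little room for one. These differences are therefore in part set by the choice of bins. Among the rich bins, H3K4me3 went with the number of regions (Spearman's rho 0.955 over 352 bins) and little with their mean width (rho 0.276). These points share libraries and neighbours, and both quantities enter the covered length, so the values only describe the bins. In the richest 41 bins, with 60 kb or more, the median width was 886 bp and 7.17% of regions reached 2000 bp.

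The median peak in rich bins was not stronger. The authors' median fold enrichment, the caller's ratio over the local background, was 24.1 and 23.7 in replicates 1 and 2 in rich bins and 28.9 and 27.6 in poor bins. The fragments over the median summit were 71 and 79 in rich and 83 and 90 in poor bins. Fold spread more widely in rich bins. Its 90th percentile was 119.8 and 110.9 in rich against 114.1 and 108.1 in poor bins, and its 10th percentile 4.79 and 4.68 against 5.42 and 5.03. Regions also lay closer together in rich bins. The nearest other region was a median of 5540 bp away in rich, 15254.5 bp in intermediate and 62758.5 bp in poor bins. A neighbour within 2 kb was found for 28.5% of regions in rich bins and for 11.97% in poor bins. On average there was 1 region per 352 kb in poor bins and per 23.6 kb in rich bins.

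The 5 richest bins held 84.7 to 86.0 kb each. The first lay on chromosome 8 from 170000001 to 171000000, with 94 regions and 97.4 and 99.6 kb of H3K4me3 in the single libraries. Next came chromosome 2 from 156000001 to 157000000 (96.5 and 94.7 kb, 82 regions) and chromosome 3 from 7000001 to 8000000 (94.8 and 94.0 kb, 78 regions). The last were chromosome 2 from 167000001 to 168000000 (92.1 and 95.4 kb) and from 170000001 to 171000000 (92.4 and 91.3 kb), with 81 regions each. Their H3K27me3 ranged from 16.6 to 32.4 kb in bases of both replicates, and their H3K9me2 from 0 to 1.40 kb. Of the 41 bins of 60 kb or more, 32 lay on chromosomes 2, 3 and 8.

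The limit of 20 kb lay within a continuous range of values, and a limit of 30 kb left 222 rich bins in 64 runs. Just inside were chromosome 9 from 4000001 (20.29 kb), chromosome 11 from 249000001 (20.32 kb) and chromosome 11 from 11000001 (20.32 kb). Just outside were chromosome 1 from 257000001 (19.99 kb), chromosome 12 from 254000001 (19.94 kb) and chromosome 1 from 196000001 (19.88 kb).

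H3K27me3, which the choice of bins did not use, was also higher in rich bins. Rich bins held 27.1 and 23.6 kb of H3K27me3 per bin in replicates 1 and 2 (25.4 ± 2.45 kb, SD, n = 2), intermediate bins 9.94 and 8.78 kb and poor bins 2.99 and 2.60 kb (2.80 ± 0.275 kb). The ratio of rich to poor bins was 9.06 and 9.07 in the single libraries, and 9.40 in bases of both replicates (20.2 against 2.15 kb). The mean was higher in rich bins on 12 of 12 chromosomes in each library. The ratio in bases of both replicates ran from 5.31 on chromosome 1 to 18.6 on chromosome 2. Every rich bin had some H3K27me3, against 76.8% of all bins, and 148 of the 352 (42.0%) had 20 kb or more, against 7.38% of all bins.

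The ratio of rich to poor bins depended on position. Within the outer 15% at each end, 299 rich bins held 20.5 kb of H3K27me3 in bases of both replicates and 214 poor bins 5.43 kb, a ratio of 3.77. Rich bins were still higher on 12 of 12 chromosomes there, with a mean difference of 13.9 ± 6.14 kb (SD over chromosomes, with 3 to 26 poor bins each). In the rest of the chromosomes, 53 rich bins held 18.8 kb and 1448 poor bins 1.67 kb, a ratio of 11.3. Rich bins held 20.5 kb of H3K27me3 at 10 to 20 Mb from an end, 18.2 kb at 20 to 40 Mb and 13.7 kb at 40 to 80 Mb, while poor bins at these distances held 6.47, 4.30 and 2.73 kb. Beyond 80 Mb, 6 rich bins held 15.2 kb and 913 poor bins 1.10 kb. These 6 all lay on chromosome 1 and ranged from 1.22 to 45.2 kb, so their mean describes no steady level. Within 2 Mb the ratio of rich to poor bins was 4.79, and at 2 to 5 Mb, with 3 poor bins, 3.34. The lowest ratio was 1.89, at 5 to 10 Mb, where 60 rich bins held 20.8 kb and 10 poor bins 10.98 kb. Against intermediate bins, rich bins were lower only at 2 to 5 Mb, where 20 intermediate bins held 27.5 kb and 49 rich bins 26.1 kb.

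**Figure D5:**
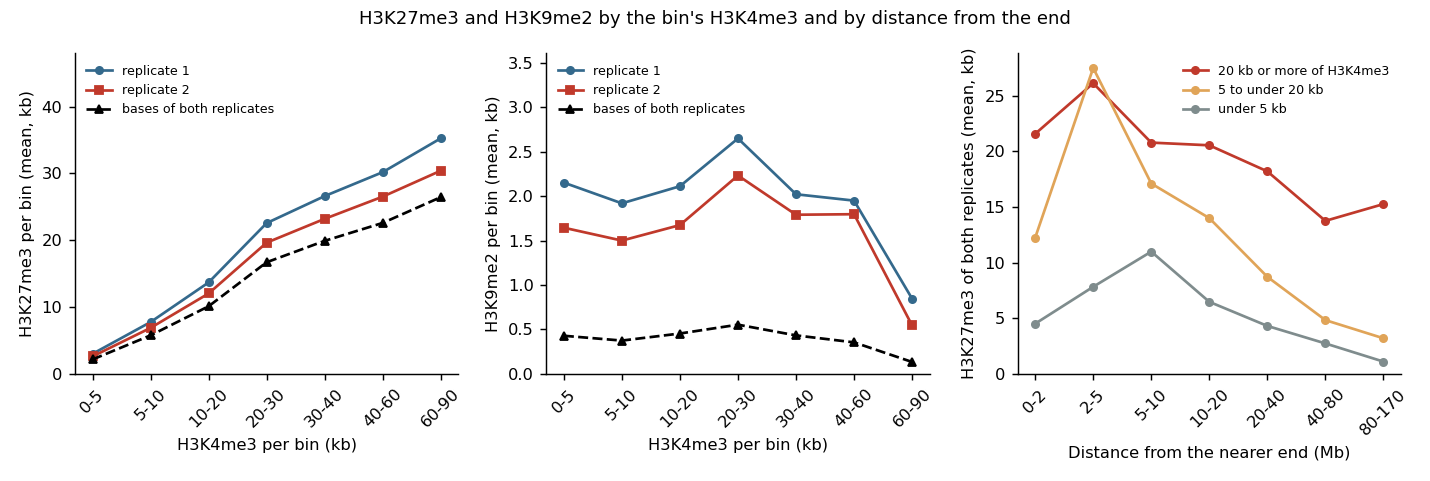
Left and middle, mean kb per bin of H3K27me3 and of H3K9me2 (y axes) for bins grouped by their H3K4me3 in kb (x axes), in each replicate and in bases of both. Right, mean H3K27me3 of both replicates (y axis) by distance from the nearer end in Mb (x axis) in rich, intermediate and poor bins. The mean of rich bins is 13.7 kb or more at all distances. Beyond 80 Mb it rests on 6 bins of chromosome 1 that range from 1.22 to 45.2 kb.

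H3K27me3 did not keep pace with H3K4me3 inside the rich bins. Rich bins of 20 to 30 kb of H3K4me3 held 16.7 kb of H3K27me3, those of 30 to 40 kb 19.9 kb, those of 40 to 60 kb 22.6 kb and those of 60 kb or more 26.4 kb. H3K27me3 bases per H3K4me3 base therefore went from 0.932 in poor bins to 0.688 in the first of these groups and 0.3799 in the last. The groups were set by H3K4me3, which is also the divisor, so this fall is in part set by the grouping. Spearman's rho of the 2 marks over the 352 bins was 0.350, as a description. Like H3K4me3, H3K27me3 differed mostly by number of regions, with 31.2 regions per rich bin of a median 461 bp and 3.48 per poor bin of 430 bp. Across the inner border of the 17 long runs, median H3K27me3 was 15.2 kb in the last bin inside and 10.6 kb in the first outside, and it was lower outside at 9 of the 17.

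Single rich bins ranged from almost none to far more H3K27me3 than H3K4me3. The most was on chromosome 2 from 176000001 to 177000000, with 138.4 and 126.8 kb in the single libraries beside 82.3 and 82.2 kb of H3K4me3. Next came chromosome 4 from 4000001 to 5000000, with 114.8 and 98.2 kb beside 31.7 and 32.4 kb of H3K4me3, and chromosome 9 from 5000001 to 6000000, with 103.6 and 96.6 kb beside 37.3 and 36.5 kb. The least was on chromosome 12 from 19000001 to 20000000, with 1.57 and 0.756 kb, on chromosome 5 from 5000001 to 6000000, with 2.32 and 1.45 kb, and on chromosome 11 from 10000001 to 11000000, with 1.24 and 1.45 kb. The H3K4me3 of these 3 bins was 26.1, 20.7 and 30.02 kb.

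The share of H3K4me3 that also carried H3K27me3 was nearly the same in every class of bins. Of the H3K4me3 bases found in both replicates, 5.38% in rich, 5.29% in intermediate and 5.33% in poor bins were also covered by H3K27me3 in both replicates. In the 4 pairings of single libraries the share was 6.27 to 6.82% in rich and 6.57 to 7.28% in poor bins. Of the H3K27me3 bases, 10.4% lay on H3K4me3 in rich bins and 5.72% in poor bins, against 8.01% in all bins. In the bins of 60 kb or more it was 14.3%. The bins were grouped by how many bases H3K4me3 covers, so this order is in part set by the choice of bins.

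H3K9me2 peaks showed no steady difference between rich and poor bins, but they covered few bases and the replicates shared little. The lists covered 6.42 and 5.03 Mb in replicates 1 and 2, and 1.29 Mb was found in both, in regions of a median 271 bp. The H3K4me3 lists covered 30.96 and 31.03 Mb, and 27.7 Mb was found in both. The H3K9me2 values therefore describe called peaks only, and whether the mark is evenly spread was not tested. Rich bins held 2.10 and 1.81 kb per bin in replicates 1 and 2 (1.95 ± 0.203 kb, SD, n = 2), poor bins 2.15 and 1.64 kb (1.90 ± 0.359 kb), so the libraries pointed in opposite directions. In bases of both replicates the means were 0.421 and 0.428 kb. That ratio of 0.983 turned to 1.17 and 1.01 when replicate 1 or replicate 2 of every mark was left out. Rich bins were higher on 5 and lower on 7 of the 12 chromosomes, with ratios from 0.269 on chromosome 2 to 4.27 on chromosome 9. The typical rich bin nevertheless held less: the median was 1.03 and 0.716 kb per rich bin in the single libraries, against 1.70 and 1.23 kb per poor bin. At least 1 base in both replicates was found in 165 of the 352 rich bins (46.9%), against 53.7% of all bins and 56.5% of poor bins.

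Single bins weighed heavily in the means by position. Within the outer 15%, H3K9me2 of both replicates was 0.422 kb in rich and 1.05 kb in poor bins, lower in rich bins on 9 of 12 chromosomes. The exceptions were chromosomes 9, 11 and 12. The single libraries gave 2.12 and 1.83 kb in rich against 3.57 and 3.02 kb in poor bins of that zone. Without the 10 bins of most H3K9me2 in the genome, 8 of them poor bins of that zone, the poor bins held 0.546 kb. In the rest of the chromosomes, rich bins held 0.413 kb and poor bins 0.336 kb, but 0.306 kb in rich bins without their highest bin, on chromosome 1 from 57000001. Of the bins there, 47.2% of the rich and 56.6% of the poor had any H3K9me2 in both replicates. Over all bins, leaving out those 10 put poor bins at 0.362 kb, below the 0.421 kb of rich bins, so the order of the means turned. Of the 10 bins with most H3K9me2 in the genome, 8 were poor, 2 intermediate and none rich, and the first held 24.2 kb on chromosome 7 from 22000001 to 23000000.

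Among the rich bins themselves, the richest held the least H3K9me2. The 41 bins of 60 kb or more of H3K4me3 held 0.846 and 0.545 kb in the single libraries, against 2.65 and 2.23 kb in those of 20 to 30 kb. On each of the 7 chromosomes that had such bins, both libraries gave them less H3K9me2 than the mean of all rich bins of that chromosome, which includes them. Chromosome 7 had 1 such bin, and chromosomes 4 and 10 had 2 each. The rich bins with most H3K9me2 were on chromosome 12 from 12000001 to 13000000 (21.1 and 21.6 kb in the single libraries), on chromosome 1 from 57000001 to 58000000 (16.8 and 13.7 kb) and on chromosome 4 from 237000001 to 238000000 (17.6 and 22.8 kb). They held 21.0, 35.7 and 25.4 kb of H3K4me3. Of H3K9me2 peaks, 5.55% and 6.27% in rich and 8.97% and 10.2% in poor bins stood on a local background more than 5-fold the lowest one in the same library. Leaving those peaks out, a choice made after seeing the data, gave 1.96 and 1.68 kb in rich and 1.89 and 1.42 kb in poor bins.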

How the data were processed

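The submitters' processing notes name the peak caller MACS2 2.2.7.1, the aligner BWA 0.7.17, the trimmer Trimmomatic 0.38 and deepTools 3.3.0, without their settings. Reads were 150 bp pairs, per the labels. The authors called peaks per library. Each deposited list holds positions and summits, the caller's score, the fold enrichment as a ratio to local background, and columns of −log10 p and −log10 q, with a lowest −log10 q of 2.01 to 2.05 on the chromosomes. Sequencing depth is not given in the sources, so precision is given by fragments per peak, solved from fold and p under a Poisson model; the solutions lay within 0.01 of whole numbers in 100% of cases.

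Overlapping peaks of a list were merged, and bases covered in both replicates were counted per bin. Of the 12 shorter last bins, 1 was rich and 7 were poor. The members, classes, sides and alternatives were chosen with earlier results of these data known. Named are the bins and runs highest or lowest in the measure described, 3 or 5 of each, and those nearest to 20 kb. Python 3.11.15, numpy 2.4.6, scipy 1.17.1 and matplotlib 3.10.9 were used, and the counting was tested on simulated lists. The 6 input samples enter only through the authors' peak calling, and unplaced sequences were left out.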

Additional observations from a re-analysis of the deposited data

How the results depend on the processing

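With a limit of 30 kb, 222 bins were rich, in 64 runs, 89.2% lay in the outer 15%, the first bin outside kept 0.430, and the ratios of rich to poor bins were 18.0 for region number, 1.05 for width, 10.4 for H3K27me3 and 0.802 for H3K9me2. With 15 kb the outer share was 81.7% and the ratios were 12.9, 1.02, 8.48 and 1.03, in the same order, so that of H3K9me2 reversed. With bins of 0.5 Mb and both limits divided by 2 there were 741 rich bins in 269 runs, the outer share was 80.8%, 0.341 was kept, and the ratios were 18.3, 1.08, 7.39 and 0.818. With bases of either replicate, the outer share was 83.1%, the ratios of number and width were 16.1 and 1.00, and that of H3K9me2 reversed to 1.04. With a −log10 q of at least 10, 0.443 was kept and the ratios were 14.5, 1.07, 9.52 and 0.682. Bins that start 0.5 Mb later gave 0.3997 kept. With poor bins under 2 kb, the ratios were 33.5 for number, 1.08 for width and 11.1 for H3K27me3. Within the outer 15%, the ratio was 3.77 for H3K27me3 and 0.401 for H3K9me2. Limiting the local background, added after seeing the data, reversed the H3K9me2 ratio to 1.28. Leaving out the 10 bins of most H3K9me2, also added then, reversed it to 1.16, and within the outer 15% gave 0.774.

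Leaving out either replicate gave 394 to 396 rich bins, 118 to 120 runs, an outer share of 83.6% to 84.3%, 0.404 to 0.422 kept, and ratios of 15.56 to 15.65 for number, 1.016 to 1.021 for width, 9.27 to 9.42 for H3K27me3 and 1.01 to 1.17 for H3K9me2, the last reversed. For these values the cause was not tested. The ratio of H3K9me2 had no stable direction. No paired analysis was possible because only exact tests were considered for groups this small, and on 2 pairs these cannot go below p = 0.5; rich and poor bins were read in the same libraries, so the ratio within each library is given instead. With 15 fragments over the median H3K9me2 summit, weak H3K9me2 domains are the least certain. Peak lists give no signal outside peaks.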

Other observations

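Between rich bins lay 36 single bins under 20 kb with a rich bin on either side. They held 13.4 kb of H3K4me3 on average (0.501 to 19.99 kb), and their 67 rich neighbours held 30.6 kb. H3K27me3 differed less, at 21.7 and 19.3 kb in the single libraries in the enclosed bins and 28.3 and 24.8 kb in the neighbours. It was above both neighbours in 10 of the 36. The same count was not taken over all bins, so whether it is particular to the enclosed bins was not tested. Rich neighbours had to hold 20 kb or more by the rule, so the difference in H3K4me3 is set by it. The rule did not use H3K27me3, but that mark was higher in bins with more H3K4me3. It was 10.1 kb in bins of 10 to 20 kb of H3K4me3 and 16.7 kb in those of 20 to 30 kb. Its values are therefore not independent of the choice.

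The poor bins with most H3K27me3 lay on chromosome 12, from 8000001 to 9000000, with 77.0 and 67.8 kb in the single libraries, and on chromosome 6, from 15000001 to 16000000, with 48.2 and 46.0 kb. A further one lay on chromosome 12 from 220000001 to 221000000, with 35.5 and 30.2 kb. Only 11 of 1662 poor bins (0.662%) held 20 kb or more of H3K27me3 in both replicates. Of the 227 bins with that much, 65.2% were rich.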
